A study of Mus musculus with 4 samples.

Results

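The E2F and retinoblastoma family was described through 10 genes of the mouse: the transcription factor genes *E2f1*, *E2f2*, *E2f3*, *E2f4*, *E2f5*, *E2f7* and *E2f8*, and the pocket protein genes *Rb1*, *Rbl1* and *Rbl2*. The members were the genes with these names on the array, and their 13 probes were taken whatever their values. All 10 were among the 19682 genes tested, of 35019 genes and unnamed transcripts on the array, and all 13 probes were well above background in all 8 channels.

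E2F proteins bind the promoters of genes needed for DNA replication and cell division. E2F1, E2F2 and E2F3 activate these genes, E2F4 and E2F5 mostly repress them together with a pocket protein, and E2F7 and E2F8 are atypical E2Fs that repress without a DP partner and without pocket proteins. The pocket proteins pRB (*Rb1*), p107 (*Rbl1*) and p130 (*Rbl2*) hold E2Fs inactive until cyclin-dependent kinases phosphorylate them. In quiescent or arrested cells p130 or p107, E2F4 or E2F5, DP and the MuvB core form the DREAM complex, a repressor of cell cycle genes, and p53 reaches this system through *Cdkn1a* (p21), an inhibitor of those kinases. In neural progenitors the family is known for setting exit from the cell cycle.

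The samples were neural stem/progenitor cells (NSPCs) of mouse embryos, taken at embryonic day 13.5 and grown as neurospheres with EGF and FGF. The wild-type NSPCs came from Slc:ICR embryos, and the *Trp53*-/- NSPCs, which lack p53 in all cells, from crosses of *Trp53* heterozygous mice. In each genotype, cells treated with 20 µM PJ34, an inhibitor of poly(ADP-ribose) polymerases, were compared with untreated cells of the same genotype on 2 arrays, and the study asked which transcripts the inhibitor changes and whether the change needs p53. RNA of PJ34-treated cells was labelled with Cy5 and control RNA with Cy3 on all 4 arrays, without a dye swap, so within a genotype the effect of PJ34 and a bias of the dyes for a probe cannot be told apart. The treatment time of the array samples was not given in the sources used here. Each array had its own slide and scan.

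Per channel, the signal of between 21505 and 27156 of the 55681 probes exceeded background well, and no spot was saturated. The number of arrays, 2 per genotype, limits the precision. The probe of *Trp53* read 8.28 and 8.51 (normalised log2 level) in the untreated wild-type cultures and 7.56 and 7.82 in the untreated *Trp53*-/- cultures; the part of the gene that is deleted was not matched to this probe. *Trp53*-/- replicate 2 stood apart: the Y-linked *Eif2s3y* and *Ddx3y* had log2 ratios of 4.22 and 3.12 and *Xist* of -3.08 there, against -0.20 to 0.84, -0.20 to 0.18 and 0.38 to 0.81 on the other arrays. *Xist* is transcribed from the inactive X chromosome of female cells. On this array *Eif2s3y* read 6.24 (normalised log2 level) in the control and 10.46 in the PJ34 channel and *Xist* the opposite order, at 5.92 in the PJ34 channel, so that in its ratios the effect of PJ34 and a difference in sex between the treated and untreated cells cannot be told apart. Called results in *Trp53*-/- cells are therefore also given without this array, the array left in the genotype then being assumed to vary like the wild-type pair. All 10 progenitor markers examined (*Nes*, *Sox1*, *Sox2*, *Pax6*, *Vim*, *Fabp7*, *Msi1*, *Hes1*, *Hes5*, *Prom1*) were well above background in the control channel of every array. Of 5 microglia markers *Csf1r* and *Itgam* were well above background in every control channel and *Aif1* and *Cx3cr1* in no channel, and of 7 endothelial and mesenchymal markers *Kdr* was above it in every control channel and *Cdh5*, *Col1a1*, *Dcn*, *Lum* and *Pdgfrb* in none.

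Some members are themselves regulated through E2F sites, so the promoters were read from the RefSeq table of GRCm38.p6, which holds an entry for 7 of the 10 genes. The 250 bases before each start were searched on both strands for the E2F site in its forms TTTCGCGC, TTTGGCGC, TTTCCCGC and TTTGCCGC, each 8 bases long, which do not overlap one another at a site. Such a word was found for 3 of the 7 members, *Rbl1*, *E2f3* and *E2f7*, and for 583 of 27025 genes in the table (2.16%). It was found for 9 of the 32 E2F targets of the G1/S transition that have an entry (28.1%) and for 1 of 19 targets of G2/M. The entry of *E2f1* begins within codons of the gene, so its usual promoter was not read here. The promoters with the word are shown because they place members among the genes with E2F sites. That of *E2f8* is shown because, by brightest probe, this gene fell most with PJ34 in wild-type cells. Capitals mark the word, the letters run 5′ to 3′ on the gene's strand, and a match is a description of letters, not of binding.
*Rbl1*, chr2:157204535-157204784 (minus strand), word on the gene's strand, ending close before the start: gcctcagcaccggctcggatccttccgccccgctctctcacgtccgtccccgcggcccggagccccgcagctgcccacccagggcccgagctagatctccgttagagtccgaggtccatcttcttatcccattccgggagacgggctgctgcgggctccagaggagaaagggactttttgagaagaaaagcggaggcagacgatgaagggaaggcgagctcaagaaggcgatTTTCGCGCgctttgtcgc
*E2f3*, chr13:29986064-29986313 (minus strand), word on the opposite strand: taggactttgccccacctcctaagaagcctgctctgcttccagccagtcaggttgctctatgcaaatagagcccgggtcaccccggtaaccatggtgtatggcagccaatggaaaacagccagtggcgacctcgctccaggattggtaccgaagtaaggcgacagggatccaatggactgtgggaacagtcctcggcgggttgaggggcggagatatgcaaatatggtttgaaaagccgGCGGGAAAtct
*E2f7*, chr10:110745189-110745438 (plus strand), word on the opposite strand: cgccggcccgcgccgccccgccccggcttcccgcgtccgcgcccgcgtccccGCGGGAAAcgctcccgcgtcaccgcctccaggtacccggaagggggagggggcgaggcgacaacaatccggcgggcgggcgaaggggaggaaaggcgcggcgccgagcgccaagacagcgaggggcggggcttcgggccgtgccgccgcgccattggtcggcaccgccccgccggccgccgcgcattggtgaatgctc
*E2f8*, chr7:48881597-48881846 (minus strand), none of the words: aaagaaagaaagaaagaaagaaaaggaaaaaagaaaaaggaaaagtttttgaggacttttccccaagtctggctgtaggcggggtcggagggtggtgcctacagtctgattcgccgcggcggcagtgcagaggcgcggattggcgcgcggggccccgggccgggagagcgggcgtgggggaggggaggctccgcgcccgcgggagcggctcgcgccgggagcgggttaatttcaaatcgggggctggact
The word began 18 bases before the start in *Rbl1*, 11 in *E2f3* and 198 in *E2f7*.

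Responses are given as log2 ratios, treated over untreated, after loess normalization within each array, so that -1 is a fall to 2-fold less. A gene was called at a Storey q, the share of false calls expected among genes at least as extreme, below 0.05 in limma's fit over all genes. The samples of a group are separate RNA preparations, and with 2 of them the q values rest mainly on the spread shared over all genes.

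In wild-type NSPCs, PJ34 lowered 4 of the 10 members (*E2f2*, *E2f5*, *E2f7*, *E2f8*) and raised 2 (*Rb1*, *Rbl2*). All 7 *E2f* genes and *Rbl1* had ratios below 0 on both wild-type arrays, whereas *Rb1* and *Rbl2* were above 0 on both; 30.8% and 39.5% of all genes had such pairs. Of all genes, 11.4% were called lower and 13.7% higher in wild-type cells, and the median over the members was -0.20 against 0.030 over all genes. In *Trp53*-/- NSPCs none was called lower by limma (1, *E2f5*, at an unadjusted p below 0.05, which 31% of all genes had) and *Rb1* and *Rbl1* were called higher, against 10.6% and 12.8% of all genes, with a median of 0.20 against 0.033. No change of a member reached 2-fold, so none met the study's criteria (p and q below 0.05 and more than 2-fold), which 0.503% of all genes met in wild-type and 0.371% in *Trp53*-/- cells. The signs of the *E2f* genes and *Rbl1* in wild-type cells are those of loess-normalised ratios: when arrays were centred on their median without loess, the median of all genes moved to 0.46 in wild-type and 0.64 in *Trp53*-/- cells and these 8 members were above 0. Relative to that median, *E2f8* then stood at -0.45, *E2f7* and *E2f5* at -0.26, *E2f2* at -0.15, *E2f4* at -0.13, *E2f1* at -0.10, *Rbl1* at -0.049 and *E2f3* at 0.00080, with *Rbl2* at 0.27 and *Rb1* at 0.70.

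**Figure D1:**
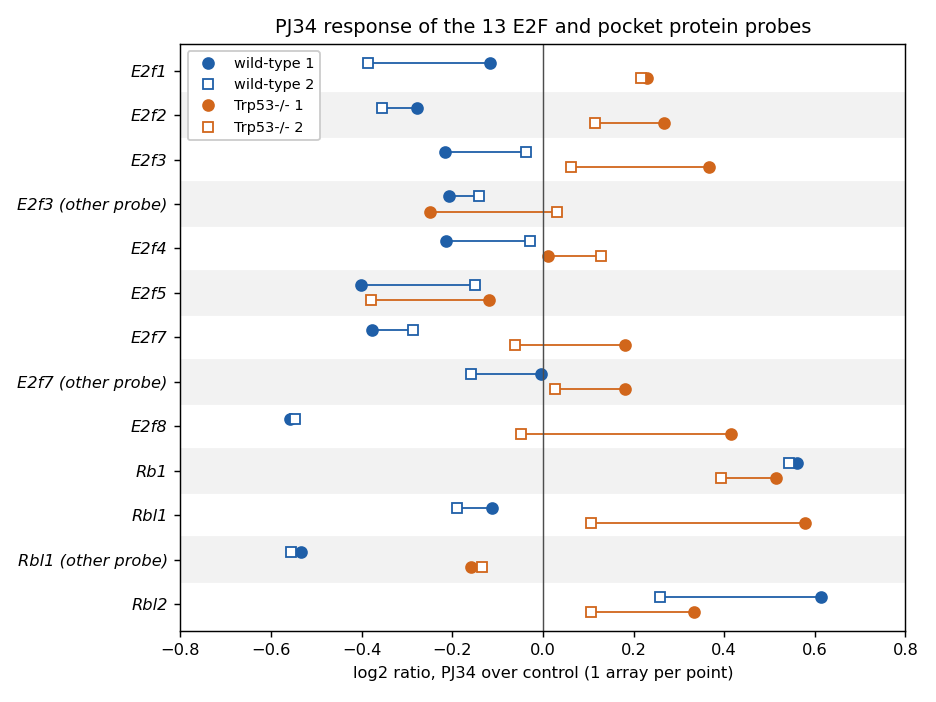
Log2 ratio of PJ34 over control (horizontal axis, after loess) of the 13 probes of the family; each point is 1 array, circles replicate 1 and squares replicate 2, blue wild-type and orange Trp53-/-. The wild-type points of *E2f8* lie at -0.56 and -0.55, left of both Trp53-/- points, while all points of *Rb1* lie between 0.39 and 0.56; under median centring instead, the wild-type means of all 10 genes lie above 0, beside a median of 0.46 over all genes.

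Among the activators, *E2f1* had ratios of -0.12 and -0.39 on the wild-type arrays and of 0.23 and 0.22 on the *Trp53*-/- arrays. The genotypes did not overlap, and the signs were opposite. The wild-type mean was -0.25 ± 0.097 (SE, n = 2, q = 0.052) and the *Trp53*-/- mean 0.22 ± 0.097 (q = 0.0718), so neither was called. The wild-type value became -0.39 and was called without wild-type replicate 1 (q = 0.0494) and -0.12 without replicate 2 (q = 0.412), and without *Trp53*-/- replicate 2 the *Trp53*-/- value was 0.23 (q = 0.297).

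*E2f2*, expressed in dividing progenitors, read -0.28 and -0.36 in wild-type and 0.27 and 0.11 in *Trp53*-/- cells. It fell in wild-type cells by 0.32 ± 0.091 on the log2 scale (1.25-fold, q = 0.019), and its *Trp53*-/- mean was 0.19 ± 0.091 (q = 0.0897; 0.27 without replicate 2, q = 0.219). The wild-type call was lost when either wild-type array was left out (q = 0.0709 without replicate 1 and 0.141 without replicate 2).

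*E2f3* was read from its brighter probe, at -0.22 and -0.04 in wild-type and 0.37 and 0.06 in *Trp53*-/- cells. Neither mean was called (-0.13 ± 0.10, q = 0.224, and 0.21 ± 0.10, q = 0.0913; 0.37 without *Trp53*-/- replicate 2, q = 0.115). The activators thus shared a sign on each array, below 0 in the wild-type and above 0 in the *Trp53*-/- pairs, with a call for *E2f2* alone.

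Of the E2Fs that repress with pocket proteins, *E2f4* had ratios of -0.21 and -0.03 in wild-type and 0.01 and 0.13 in *Trp53*-/- cells, with means of -0.12 ± 0.094 (q = 0.211) and 0.069 ± 0.094 (q = 0.318; 0.011 without *Trp53*-/- replicate 2, q = 0.664). *E2f5* had -0.40 and -0.15 in wild-type and -0.12 and -0.38 in *Trp53*-/- cells. *E2f5* was the one *E2f* gene whose genotypes overlapped, with all 4 ratios below 0. It fell in wild-type cells by 0.28 ± 0.10 (q = 0.0483), and its *Trp53*-/- mean was -0.25 ± 0.10 (q = 0.0646). The wild-type call sat at the threshold and rested on replicate 1, without which the value was -0.15 (q = 0.366). Without *Trp53*-/- replicate 2 the *Trp53*-/- value was -0.12 (q = 0.489).

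Read from the brightest probes, the atypical repressors gave the largest fall of the family. The dimmer *Rbl1* probe, described below, stood at -0.54 in wild-type cells. *E2f8*, read at chr7:56121860-56121919 (mm9, minus strand), had ratios of -0.56 and -0.55 in wild-type and 0.41 and -0.05 in *Trp53*-/- cells. The wild-type arrays were nearly equal and lay far below the *Trp53*-/- pair, which was spread on either side of 0. *E2f8* fell in wild-type cells by 0.55 ± 0.11 (1.47-fold, q = 0.00436), lower than all but 2.5% of genes, and remained called without replicate 1 (q = 0.0116) or replicate 2 (q = 0.00948). The *Trp53*-/- mean was 0.18 ± 0.11 (q = 0.149), or 0.41 without replicate 2 (q = 0.0728).

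*E2f7*, which acts together with *E2f8*, had -0.38 and -0.29 in wild-type and 0.18 and -0.06 in *Trp53*-/- cells. It fell in wild-type cells by 0.33 ± 0.096 (1.26-fold, q = 0.0196), with a *Trp53*-/- mean of 0.060 ± 0.096 (q = 0.344; 0.18 without replicate 2, q = 0.364). The pattern was that of *E2f8* at a smaller size, and the wild-type call was lost when either wild-type array was left out (q = 0.143 without replicate 1 and 0.0575 without replicate 2).

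Among the pocket proteins, *Rb1* rose in both genotypes. Its probe (chr14:73595408-73595467, mm9, minus strand), printed in 10 spots on each array, had mean ratios of 0.56 and 0.54 in wild-type and 0.52 and 0.39 in *Trp53*-/- cells, all above 0 and within a narrow range. The mean was 0.55 ± 0.089 in wild-type (1.47-fold, q = 0.00132) and 0.45 ± 0.089 in *Trp53*-/- cells (1.37-fold, q = 0.00431), at the 97.2 and 96.7 percentile of all genes. Without *Trp53*-/- replicate 2 the latter was 0.52 (q = 0.0321), and without replicate 1 it was 0.39 and no longer called (q = 0.0591).

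*Rbl2*, whose product p130 is the pocket protein of quiescent cells, had 0.61 and 0.26 in wild-type and 0.33 and 0.11 in *Trp53*-/- cells. It rose in wild-type cells by 0.44 ± 0.11 (1.35-fold, q = 0.0109), and its *Trp53*-/- mean was 0.22 ± 0.11 (q = 0.0987; 0.33 without replicate 2, q = 0.174). All 4 ratios were above 0 and the genotypes overlapped; without wild-type replicate 1 the rise was 0.26 and not called (q = 0.179).

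*Rbl1* (p107), itself an E2F target, behaved like the *E2f* genes in sign. Its brighter probe had -0.11 and -0.19 in wild-type and 0.58 and 0.11 in *Trp53*-/- cells. The wild-type mean was -0.15 ± 0.12 (q = 0.207), and *Rbl1* was called higher in *Trp53*-/- cells at 0.34 ± 0.12 (1.27-fold, q = 0.0347). The call rested on *Trp53*-/- replicate 1: the value was 0.11 without it (q = 0.403) and 0.58 without replicate 2 (q = 0.0203).

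The genes *E2f3*, *E2f7* and *Rbl1* have 2 probes each, and the dimmer probes gave different values. For *E2f3* the brighter probe lies at chr13:29998480-29998539 and the other spans a splice junction between chr13:30005369 and chr13:30008755 (mm9, minus strand). The latter is shown because it, unlike the brighter one, reads across joined exons: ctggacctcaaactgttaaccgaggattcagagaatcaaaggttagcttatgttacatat
It had -0.21 and -0.14 in wild-type and -0.25 and 0.03 in *Trp53*-/- cells, so that the opposite signs of the brighter *E2f3* probe were not seen (*Trp53*-/- mean -0.11, q = 0.247). The dimmer *E2f7* probe (chr10:110219255-110219314, mm9) had -0.0040 and -0.16 in wild-type cells and did not pass (mean -0.081, q = 0.315), so the call of *E2f7* belongs to the brighter probe at chr10:110224331-110224390. The dimmer *Rbl1* probe (chr2:157000761-157000820, mm9) is assigned to another transcript, NM_001139516, than the brighter one at chr2:156972143-156972202 (NM_011249). It had -0.53 and -0.56 in wild-type and -0.16 and -0.13 in *Trp53*-/- cells, and fell in wild-type cells by 0.54 ± 0.088 (1.46-fold, q = 0.0014, fit over all probes). In *Trp53*-/- cells its mean was -0.15 (q = 0.149). The ratios of both *Rbl1* probes were thus lower in wild-type than in *Trp53*-/- cells. The difference between the probes was not tested, and within a genotype it cannot be told apart from a bias of the dyes.

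The difference between the responses, wild-type minus *Trp53*-/-, does not carry a bias of the dyes that is the same on all arrays. It was negative for 8 of 10 members, with a median of -0.37 against -0.006 over all genes, and it was called for *E2f8* alone (6 members at an unadjusted p below 0.05, against 14.5% of all genes); of all genes 0.478% were called lower and 1.31% higher in this test. For *E2f8* it was -0.74 ± 0.16 (95% interval -1.09 to -0.38, q = 0.0429), or -0.97 without *Trp53*-/- replicate 2 (q = 0.0128) and -0.50 without *Trp53*-/- replicate 1, where it was not called (q = 0.154). The call was also lost without background correction (q = 0.0633), with a normexp offset of 16 (q = 0.132), the scanner software's values (q = 0.269), median centring (q = 0.1) or Benjamini-Hochberg adjustment (q = 0.0586), with values between -0.94 and -0.74. It was -0.51 for *E2f2* (-0.80 to -0.22, q = 0.0702), -0.49 for *Rbl1* (-0.85 to -0.13, q = 0.139) and -0.47 for *E2f1* (-0.78 to -0.17, q = 0.0998). With 1 array left out, that of *E2f1* ran from -0.61, called without wild-type replicate 1 (q = 0.0436), to -0.34 (q = 0.324), and that of *Rbl1* from -0.73 without *Trp53*-/- replicate 2 (q = 0.0555) to -0.26 without *Trp53*-/- replicate 1 (q = 0.479). Smaller differences were found for *E2f7* (-0.39, q = 0.157), *E2f3* (-0.34, q = 0.233), *E2f4* (-0.19, q = 0.411) and, above 0, *Rbl2* (0.22, q = 0.421).

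Both wild-type ratios lay below both *Trp53*-/- ratios for 7 members (*E2f1*, *E2f2*, *E2f3*, *E2f4*, *E2f7*, *E2f8*, *Rbl1*), a pattern found in 23.8% of all genes. For 5 of these (*E2f1*, *E2f2*, *E2f3*, *E2f4*, *Rbl1*) the wild-type pair was below 0 and the *Trp53*-/- pair above it, as in 5.36% of all genes. These patterns are those of the brightest probes after loess. *Rb1* was the one member with the reverse order, found in 21.3% of all genes, and its difference was 0.098 (-0.18 to 0.38, q = 0.574; -0.11 with median centring). For *E2f5* the difference was -0.027 (-0.35 to 0.30, q = 0.701). In *Trp53*-/- cells the dimmer *E2f3* probe read -0.25 and 0.03, which overlapped its wild-type pair, and the dimmer *Rbl1* probe -0.16 and -0.13. By the fit over all probes the differences of the dimmer probes were -0.065 for *E2f3* (q = 0.669), -0.19 for *E2f7* (q = 0.44) and -0.40 for *Rbl1* (q = 0.134).

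In untreated cells the comparison runs across arrays, and genotype cannot be told apart from slide, scan, the source of the embryos (Slc:ICR or the *Trp53* crosses) and sex. The untreated level of *Eif2s3y* was 8.96 and 8.47 in wild-type and 6.01 and 6.24 in *Trp53*-/- cells, and that of *Ddx3y* 8.25 and 8.06 against 6.04 and 6.17, so Y-linked transcripts differed along with genotype. None of the 10 members was called by limma (1, *E2f2*, at an unadjusted p below 0.05, which 24.9% of all genes had), against 4.65% of genes higher and 4.67% lower in *Trp53*-/- cells. *E2f2* read 11.00 and 11.03 (normalised log2 level) in wild-type and 10.47 and 10.63 in *Trp53*-/- cells, a difference of -0.46 ± 0.17 (q = 0.0979). This difference was -0.48 without wild-type replicate 1 and -0.44 without replicate 2. *E2f4* read 9.12 and 7.94 in wild-type and 7.89 and 7.48 in *Trp53*-/- cells, a difference of -0.85 ± 0.39 (q = 0.135). That of *E2f4* was -0.26 without wild-type replicate 1 and -1.44 without replicate 2. *E2f1* read 10.22 and 10.65 against 10.51 and 10.37, a difference of 0.0013 ± 0.21 (-0.51 to 0.51).

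By brightest probe, both *Trp53*-/- levels lay below both wild-type levels for *E2f2*, *E2f4*, *E2f7*, *E2f8* and *Rbl1* (28.5% of all genes). For *Rbl2* both lay above them (28.7%). The groups overlapped for the dimmer *E2f7* probe, at 6.81 and 7.60 in wild-type and 6.84 and 7.03 in *Trp53*-/- cells (-0.27, q = 0.34, fit over all probes). *Rbl1* read 9.93 and 9.32 against 8.98 and 9.21 (-0.53 ± 0.25, q = 0.139). *E2f8* read 10.27 and 9.56 against 9.48 and 9.49 (-0.43 ± 0.26, q = 0.204). *Rbl2* read 7.08 and 7.07 against 7.34 and 7.57 (0.38 ± 0.18, q = 0.142), the one pocket protein gene with higher levels in both untreated *Trp53*-/- cultures. By brightest probe, *E2f3* (-0.31, q = 0.348), *E2f7* (-0.24, q = 0.289), *Rb1* (-0.092, q = 0.465) and *E2f5* (0.17, q = 0.359) differed less. The dimmer *E2f3* probe went the other way, at 7.52 and 7.53 in wild-type and 7.80 and 7.93 in *Trp53*-/- cells. Its difference was 0.34 (q = 0.156, fit over all probes), and that of the dimmer *Rbl1* probe was -0.42 (q = 0.138). The untreated values depended on which wild-type array was kept. *Rbl1* became -0.23 without replicate 1 and -0.84 without replicate 2, *E2f8* -0.074 and -0.78, and *E2f7* -0.024 and -0.47. With a wild-type array left out, the spread came from the *Trp53*-/- pair alone, so effect sizes are given here. Without *Trp53*-/- replicate 2 no member was called in untreated cells. The untreated cells are also the denominator of the responses, so the untreated differences and the responses are not independent.

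Taking the conditions by mean level, *E2f8* was highest in untreated wild-type cells (9.91), followed by treated *Trp53*-/- (9.67), untreated *Trp53*-/- (9.49) and treated wild-type cells (9.36). With an SD of 0.50 in untreated wild-type cells, neighbours in this order were not separated across arrays. *E2f1* was highest in treated *Trp53*-/- cells (10.66), with both untreated groups at 10.44 and treated wild-type cells at 10.19. *Rb1* read 10.91 and 10.49 in treated and 10.35 and 9.94 in untreated wild-type cells, and 10.45 and 10.57 in treated and 9.94 and 10.18 in untreated *Trp53*-/- cells, higher in the treated channel of every array. The levels rank conditions within a gene and not genes against each other, since a probe's brightness depends on its sequence.

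**Figure D2:**
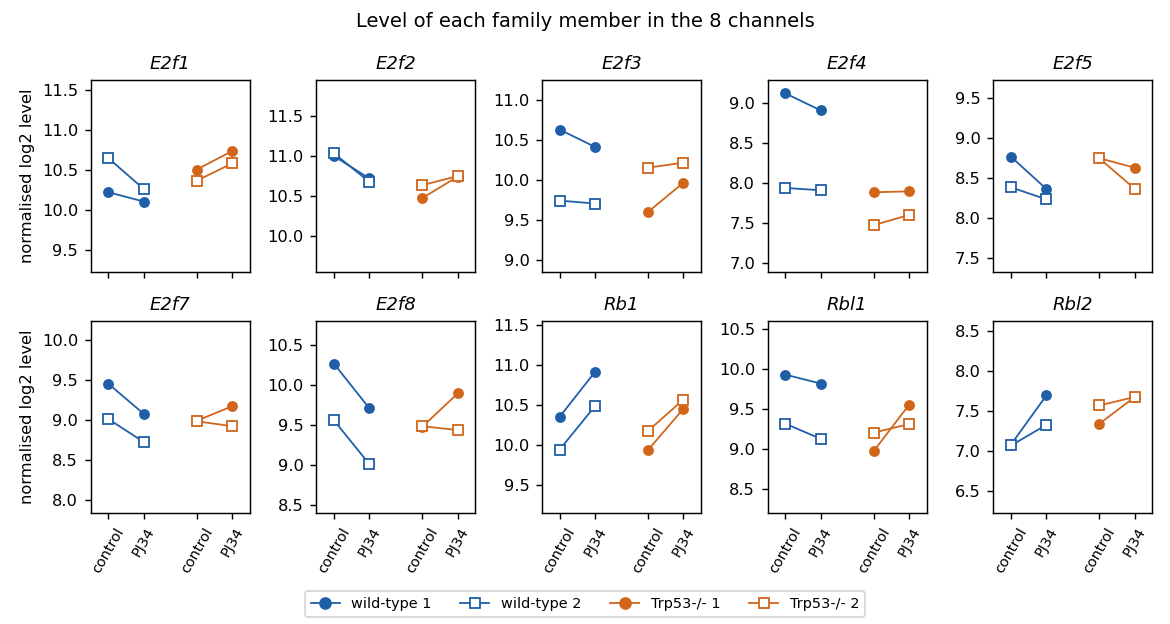
Normalised log2 level (vertical axis, the same span in every panel) of each member's brightest probe in the control and PJ34 channels; a line joins the channels of 1 array, circles are replicate 1, squares replicate 2, blue wild-type, orange Trp53-/-. Lines fall for *E2f8* in wild-type and rise for *Rb1* on all 4 arrays, and the starting levels of *E2f4* on the wild-type arrays differ by more than its changes with PJ34; the directions are those after loess.

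Levels over the 8 channels were compared among 15118 genes well above background in all channels, each read from its brightest probe. The levels of *E2f8* were most like those of *E2f7* (Pearson's r = 0.993), *Usp1* (0.984) and *Nup107* (0.975). *Usp1* encodes a deubiquitinase and *Nup107* a nuclear pore protein. The dimmer *E2f7* probe read 6.81 and 7.60 in untreated wild-type cells, the opposite order to *E2f8* at 10.27 and 9.56. The levels of *E2f1* were most like those of *Oscp1* (0.986), *Rprd1b* (0.96) and *Eef1aknmt* (0.958). Those of *Rbl1* were most like those of *Eif4enif1* (0.967), *Obi1* (0.966) and *Nkrf* (0.963). The 8 levels come from 4 arrays, share the differences between arrays, and are a description.

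The DNA-binding partners showed no call. *Tfdp1* (DP1) had 0.06 and -0.05 in wild-type and 0.19 and 0.09 in *Trp53*-/- cells, and *Tfdp2* (DP2) -0.14 and 0.23 in wild-type and 0.12 and -0.03 in *Trp53*-/- cells. *E2f6*, a repressor that works with polycomb proteins, fell in *Trp53*-/- cells by 0.25 ± 0.090 (q = 0.0436), a call lost without replicate 2 (-0.18, q = 0.362). Of the 7 genes of the MuvB core and its B-Myb and FoxM1 partners, 3 fell in wild-type cells, where 11.4% of all genes were called lower. The 3 were *Foxm1* by 0.68 ± 0.096 (1.60-fold, q = 0.000654), *Mybl2* (B-Myb) by 0.62 ± 0.088 (1.53-fold, q = 0.000704) and *Lin54*, the DNA-binding subunit of MuvB, by 0.37 ± 0.10 (q = 0.0171). In *Trp53*-/- cells *Lin37* fell by 0.42 ± 0.092 (q = 0.00708) and *Mybl2* by 0.24 ± 0.088 (q = 0.0486). Without replicate 2 *Lin37* was called (-0.49, q = 0.0402) and *Mybl2* was not (-0.27, q = 0.221). No difference between the responses was called in this list (3 at an unadjusted p below 0.05).

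Of 8 cyclins and kinases that phosphorylate pocket proteins, 6 were tested, since *Ccne2* and *Cdk6* were too dim. In wild-type cells, where 11.4% of all genes were called lower, *Ccnd3* fell by 0.30 ± 0.094 (q = 0.0276), *Ccne1* by 0.28 ± 0.10 (q = 0.0458) and *Cdk2* by 0.26 ± 0.089 (q = 0.0368). No member of the list was called in *Trp53*-/- cells (none at an unadjusted p below 0.05). *Ccne1* (cyclin E1), a target as well as a regulator of the family, had -0.11 and -0.45 in wild-type and 0.10 and 0.18 in *Trp53*-/- cells, a difference of -0.42 ± 0.15 (q = 0.157). Its untreated levels were 12.3 in both wild-type and 11.9 in both *Trp53*-/- cultures (q = 0.1).

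Among 7 inhibitors of these kinases, *Cdkn1a* (p21), a p53 target, had 1.84 and 1.23 in wild-type and -0.48 and -0.74 in *Trp53*-/- cells. It rose in wild-type cells by 1.53 ± 0.14 (2.90-fold, q = 0.000102), fell in *Trp53*-/- cells by 0.61 ± 0.14 (q = 0.00738), and differed between the responses by 2.14 ± 0.19 (q = 0.000718). Other inhibitors fell in both genotypes: *Cdkn2c* (p18) by 0.60 ± 0.095 in wild-type (q = 0.00118) and 0.54 ± 0.095 in *Trp53*-/- cells (q = 0.00273), *Cdkn2d* (p19) by 0.46 ± 0.11 (q = 0.00793) and 0.37 ± 0.11 (q = 0.0213), and *Cdkn2a* (the p16 and ARF locus) by 0.39 ± 0.091 (q = 0.00818) and 0.40 ± 0.091 (q = 0.00824). Their responses did not differ by limma (q = 0.646, 0.618 and 0.719). Of all genes, 11.4% were called lower in wild-type and 10.6% in *Trp53*-/- cells. Without *Trp53*-/- replicate 2 the 5 inhibitors called lower in *Trp53*-/- cells became 0, with *Cdkn1a* at -0.48 (q = 0.105), *Cdkn2c* at -0.43 (q = 0.0691), *Cdkn2d* at -0.17 (q = 0.376) and *Cdkn2a* at -0.41 (q = 0.0855), while the difference of *Cdkn1a* was 2.02 (q = 0.000382). In untreated cells *Cdkn1a* was 6.51-fold lower in *Trp53*-/- (q = 0.00975), and *Cdkn2a* and *Cdkn2b* (p15) were 11.0-fold (q = 0.0074) and 4.68-fold higher (q = 0.00777). These across-array differences were 6.75-fold (q = 0.0206), 10.2-fold (q = 0.00669) and 4.61-fold (q = 0.0316) without *Trp53*-/- replicate 2.

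The E2F targets of the G1/S transition moved with the *E2f* genes in wild-type cells. Of 39 tested, 25 fell and none rose (none at an unadjusted p below 0.05 either, which 32% of all genes had). The list median was -0.38, and 11.4% of all genes were called lower. With median centring in place of loess none fell and 16 were called higher, as were 13272 of all 19682 genes. The list median was then 0.23, still below the 0.46 of all genes. The largest falls were those of *Uhrf1*, which maintains DNA methylation (0.87 ± 0.092, 1.83-fold, q = 0.000216), *Mcm6* of the replicative helicase (0.67 ± 0.093, q = 0.000567) and *Tk1*, thymidine kinase (0.63 ± 0.099, q = 0.00111). In *Trp53*-/- cells 13 rose and none fell (none at an unadjusted p below 0.05 either), with a median of 0.11, against 12.8% called higher among all genes. *Tyms*, thymidylate synthase, rose by 0.56 ± 0.088 (q = 0.00174), *Pole2*, a subunit of DNA polymerase epsilon, by 0.55 ± 0.090 (q = 0.00203) and *Gmnn*, the inhibitor of replication licensing, by 0.48 ± 0.12 (q = 0.00985). Without replicate 2 these were 0.56 (q = 0.0231), 0.61 (q = 0.016) and 0.69 (q = 0.011). The count of 13 depended on each *Trp53*-/- array, with 4 without replicate 1 and 6 without replicate 2, and that of 25 on wild-type replicate 2, with 13 without it.

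The response of 38 of the 39 G1/S targets was lower in wild-type than in *Trp53*-/- cells, with a median difference of -0.54, and 11 were called, against 0.478% of all genes. *Pole2* (-0.74 ± 0.13, q = 0.017), *Mcm3* (-0.73 ± 0.13, q = 0.0237) and *Pole* (-0.70 ± 0.13, q = 0.0253) had the largest called differences. The 11 calls became 3 without *Trp53*-/- replicate 2 (with *Pole2*, q = 0.037, and *Pole*, q = 0.0411, but not *Mcm3*, q = 0.0552) and 1 without *Trp53*-/- replicate 1. They became 0 with the offset of 16, the scanner software's values or the study's criteria, 1 with median centring, 5 without background correction and 6 with Benjamini-Hochberg adjustment. In untreated cells all 37 G1/S targets tested had lower means in *Trp53*-/- than in wild-type NSPCs, with a median of -0.41. Of these 5 were called, against 4.67% of all genes called lower. The 5 included *Rrm2*, the ribonucleotide reductase subunit (-0.87 ± 0.22, q = 0.0469), and *Gmnn* (-0.82 ± 0.20, q = 0.0433). The number called depended on which array was left out, here and over all genes. The median was -0.34 without wild-type replicate 1 and -0.45 without replicate 2. It was -0.51 without *Trp53*-/- replicate 1 and -0.35 without replicate 2. These control levels are also the denominators of the responses.

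**Figure D3:**
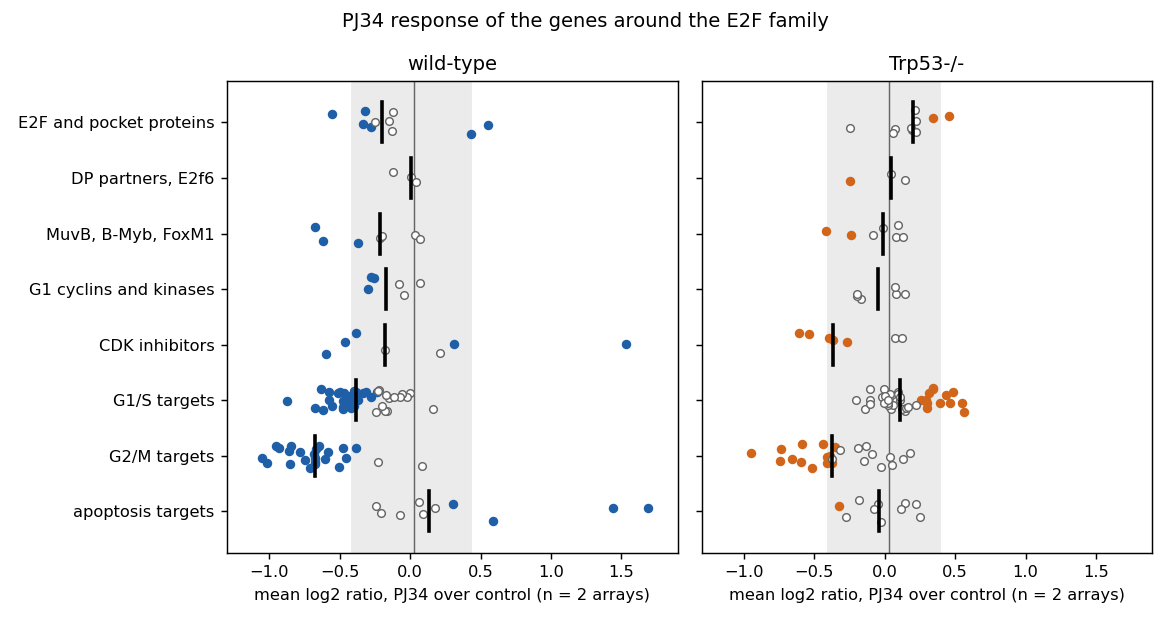
Mean log2 ratio of PJ34 over control (horizontal axis) for the genes of each list, left in wild-type and right in Trp53-/- NSPCs; filled points passed q below 0.05, open points did not, black bars are list medians, the grey band spans the middle of all genes (5 to 95 percentiles) and the thin line is their median. The G1/S targets have a median of -0.38 in wild-type and 0.11 in Trp53-/- cells and the G2/M targets -0.68 and -0.37, after loess; median centring in place of loess gives 0.23 and 1.04 for the G1/S and -0.067 and 0.44 for the G2/M targets, with all genes at 0.46 and 0.64.

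The G2/M targets of DREAM fell in both genotypes after loess. In wild-type cells 22 of 24 fell, with a median of -0.68, against 11.4% of all genes called lower. With median centring 3 fell, beside 182 of all 19682 genes. *Ube2c* (1.05 ± 0.13, 2.08-fold, q = 0.000422) and *Cenpa* (1.02 ± 0.13, 2.02-fold, q = 0.000381) passed the 2-fold criterion after loess. In *Trp53*-/- cells 13 of 24 fell, with a median of -0.37, against 10.6% of all genes called lower. They were led by *Cenpa* (0.95 ± 0.13, q = 0.000808), *Ccnb2* (0.75 ± 0.15, q = 0.00472) and *Kif20a* (0.74 ± 0.14, q = 0.00346). With median centring none fell and 19 were called higher, as were 14636 of all 19682 genes. Without *Trp53*-/- replicate 2 the 13 became 1, *Cenpa* (-0.72, q = 0.0114), with *Ccnb2* at -0.55 (q = 0.0768) and *Kif20a* at -0.47 (q = 0.0778). No difference between the responses was called for these genes by limma (8 at an unadjusted p below 0.05). Its median was -0.32, against -0.54 for the G1/S targets. Without *Trp53*-/- replicate 2 these medians were -0.55 and -0.58, and without *Trp53*-/- replicate 1 -0.18 and -0.46. Without wild-type replicate 1 they were -0.52 and -0.56, and without wild-type replicate 2 -0.16 and -0.49. The difference between the lists was not tested.

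Of 10 E2F targets of apoptosis, 4 rose in wild-type cells, where 13.7% of all genes were called higher. The 4 included *Pmaip1* (Noxa, 1.69 ± 0.12, 3.22-fold, q = 2.08e-05), *Bbc3* (Puma, 1.44 ± 0.11, q = 3.61e-05) and *Apaf1* of the apoptosome (0.59 ± 0.092, q = 0.00105), which p53 also activates. By limma none rose in *Trp53*-/- cells (1 at an unadjusted p below 0.05), against 12.8% of all genes. The responses of these 3 genes differed between the genotypes (*Bbc3* 1.51, q = 0.0015, *Pmaip1* 1.44, q = 0.00223, and *Apaf1* 0.64, q = 0.0341). In that test 1.31% of all genes were called higher. Without *Trp53*-/- replicate 2 that of *Apaf1* was 0.64 and not called (q = 0.0919).

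**Figure D4:**
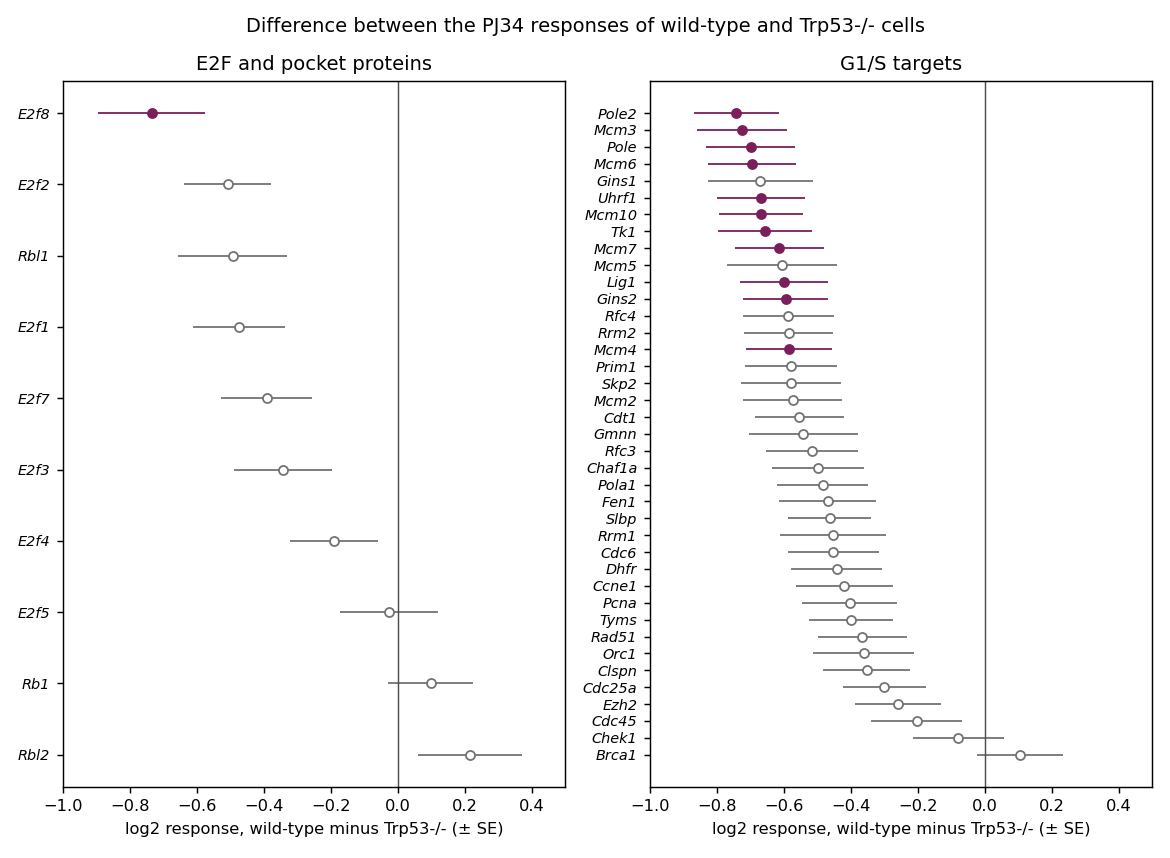
Difference between the log2 responses to PJ34, wild-type minus Trp53-/- (horizontal axis, ± SE, n = 2 arrays per genotype), of the 10 members (left) and the 39 G1/S targets (right); filled points passed q below 0.05. *E2f8* at -0.74 is filled among the members, and 11 targets are filled on the right, where 38 of 39 points lie below 0.

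Markers of cell types moved beside these values. With PJ34, 3 of 10 progenitor markers rose in wild-type cells (*Prom1*, *Msi1*, *Fabp7*) and 3 fell (*Hes5*, *Hes1*, *Sox1*), against 13.7% and 11.4% of all genes. *Hes5*, a target of Notch signalling, fell by 1.76 ± 0.13 in wild-type (3.38-fold, q = 4.24e-05) and by 0.65 ± 0.13 in *Trp53*-/- cells (q = 0.00557). The difference was -1.11 ± 0.19 (q = 0.017). Without replicate 2 the *Trp53*-/- value of *Hes5* was -0.85 (q = 0.00754) and the difference -0.91 (q = 0.0512). *Prom1* and *Fabp7* rose in *Trp53*-/- cells also and *Vim* fell, and without replicate 2 *Prom1* (q = 0.0157) and *Fabp7* (q = 0.0246) were called and *Vim* was not (q = 0.0872). Among 5 astrocyte markers *Gfap* and *Aldh1l1* rose in *Trp53*-/- cells (0.81, q = 0.0339, and 0.37, q = 0.0409), calls lost without replicate 2 (-0.00018, q = 0.677, and 0.18, q = 0.421), and *S100b* fell (-0.62, q = 0.00177), also without it (-0.77, q = 0.00402), while *Aldoc* fell in wild-type cells (-0.40, q = 0.0206).

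In untreated cells the summed control signal of 5 oligodendrocyte markers (*Sox10*, *Mbp*, *Mog*, *Cnp*, *Mag*) was 1696 and 2793 in wild-type and 4152 and 4606 in *Trp53*-/- cells, and *Mbp* and *Mag* were higher in *Trp53*-/- cells (3.95-fold, q = 0.00923, and 2.99-fold, q = 0.0347). Without replicate 2 *Mbp* was 4.02-fold higher (q = 0.0435) and *Mag* was not called (q = 0.206). PJ34 lowered 3 of the 5 in *Trp53*-/- cells, led by *Mag* (1.36 ± 0.12, q = 0.000159), or 1, *Mag*, without replicate 2 (-1.14, q = 0.000675), and limma called none of them in wild-type cells, where *Mag* had an unadjusted p of 0.0442. The sum of 5 astrocyte markers was 30250 and 33236 against 38715 and 36055, with *Gfap* 5.20-fold (q = 0.0128) and *S100b* 3.72-fold (q = 0.00967) higher in untreated *Trp53*-/- cells, or 5.22-fold (q = 0.0381) and 3.41-fold (q = 0.0776) without replicate 2. Of the other astrocyte markers, *Aqp4* (0.66, q = 0.0482, or 0.67 without replicate 2) and *Aldoc* (0.23, q = 0.26) had higher means there. That of *Aldh1l1* was lower (-0.58, q = 0.269). *Gfap* alone of the 5 was not well above background in every control channel. Among the oligodendrocyte markers, *Cnp* (1.05, q = 0.0649) and *Sox10* (0.49, q = 0.118) had higher means and *Mog* a lower one (-0.41, q = 0.116). Neuron markers also went both ways. Their summed signal, over 7 markers, was 10086 and 7718 in wild-type and 6766 and 7047 in *Trp53*-/- cells, but 4 of the 6 tested had higher means in *Trp53*-/- cells. *Rbfox3* (1.24, q = 0.0182) and *Syt1* (0.93, q = 0.0253) were called higher and *Snap25* lower (-0.73, q = 0.0453), and without *Trp53*-/- replicate 2 none of these 3 was called. *Kdr* was 2.53-fold lower in untreated *Trp53*-/- cells (q = 0.0151, or 0.248 without replicate 2). In bulk RNA, fewer cells of a type and less RNA per cell cannot be told apart, and the part of these markers in the values of the E2F family was not tested.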

How the data were processed

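RNA was measured on 4 Agilent SurePrint G3 Mouse GE arrays in 2 colours, 2 arrays per genotype, and grouped by the labels. Agilent Feature Extraction 10.7.3.1 (submitters' processing notes) read the scans. The deposited intensity values used here are each spot's mean signal and median local background, not yet normalized. The deposited log10 ratios of the software, background-subtracted and dye-normalized, served as an alternative. A deposited table with 4 numbered columns was not used here, since its columns match no array by name.

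Background was corrected by normexp (offset 50), ratios were normalized by loess within arrays, control and outlier spots were left out, and the spots of a probe were averaged. Probes with at least 1 channel well above background on both arrays of a genotype were kept (27042, 48.6%), and a gene was read from its brightest probe. Levels were quantile-normalized between arrays (16867 genes in the control channel). limma 3.58.1 (R 4.3.3) fitted a mean per genotype over all arrays (2 residual, 10.19 total degrees of freedom), with Storey q. The fits were tested on simulated data. Probe positions are mm9; symbols came through RefSeq accessions for 27235 probes (48.9%).

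The members and gene lists were chosen with earlier results of these data known. All 10 members are named by their brightest probes, with values of the dimmer probes of *E2f3*, *E2f7* and *Rbl1* given beside them. From each other list, up to 3 called genes per comparison with the largest change in the same direction on both arrays were named, plus *Cdkn1a*, *Ccne1*, *Ccne2*, *Tfdp1* and *Tfdp2*. Alternatives were no background correction, an offset of 16, the scanner software's values, median centring, scaling between arrays, no or a strict filter on dim probes, single-genotype fits, a replicate block, a variance trend, Benjamini-Hochberg adjustment, the mean over probes, the study's criteria, and leaving out each array. 1 marker gene is not reported here.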

Additional observations from a re-analysis of the deposited data

Results flagged for a closer look

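The response of *E2f8* differed between the genotypes by the test of the difference itself (wild-type minus *Trp53*-/- -0.74, limma q = 0.0429), as did those of 11 E2F targets of G1/S: *Pole2* (-0.74), *Mcm3* (-0.73), *Pole* (-0.70), *Mcm6* (-0.70), *Uhrf1* (-0.67), *Mcm10* (-0.67), *Tk1* (-0.66), *Mcm7* (-0.61), *Lig1* (-0.60), *Gins2* (-0.60) and *Mcm4* (-0.58). The 11 became 0 with the offset of 16 or the scanner software's values, where *E2f8* was not called either (q = 0.132 and 0.269). For 5 further members, by brightest probe and after loess, both wild-type arrays moved down and both *Trp53*-/- arrays up. The test of the difference did not pass for them: *E2f2* (-0.51, q = 0.0702), *Rbl1* (-0.49, q = 0.139), *E2f1* (-0.47, q = 0.0998), *E2f3* (-0.34, q = 0.233) and *E2f4* (-0.19, q = 0.411). Of all genes, 5.36% had such opposite signs on all arrays. The dimmer probes of *E2f3* (-0.25 and 0.03 in *Trp53*-/- cells) and *Rbl1* (-0.16 and -0.13) lacked this pattern. With median centring the wild-type means of these 5 members were above 0.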

How the results depend on the processing

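Of 690 values of single members under an alternative, 594 kept their direction and side of the threshold, 38 lost and 34 gained a call, and 24 changed sign. With PJ34 in wild-type cells, the 4 members called lower became 0 with the scanner software's values, median centring or the study's criteria, and the 2 called higher became 1, 7 and 0. In *Trp53*-/- cells the 2 called higher became 1 without background correction, with the offset of 16, the scanner software's values, Benjamini-Hochberg adjustment or the mean over probes, 10 with median centring and 0 by the study's criteria, and the 0 called lower became 1 in a fit of that genotype alone. Median centring called 13272 of all 19682 genes higher in wild-type and 14636 in *Trp53*-/- cells. The difference called for *E2f8* was lost (0) without background correction and with the offset of 16, the scanner software's values, median centring, Benjamini-Hochberg adjustment and the study's criteria. The cause was not tested.

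With each array left out in turn, members called lower ranged from 2 to 4 in wild-type cells, from 0 to 1 in *Trp53*-/- cells, from 0 to 2 for the difference and from 0 to 6 in untreated *Trp53*-/- cells, and members called higher from 1 to 2, from 0 to 2, at 0 and from 0 to 2. The untreated counts moved with those over all genes, the spread then coming only from the genotype with both arrays left. With arrays left out, the untreated difference ranged from -0.21 to 0.21 for *E2f1*, -0.75 to 0.13 for *E2f3*, -0.019 to 0.36 for *E2f5* and -0.30 to 0.11 for *Rb1*. The difference of responses of *E2f5* ranged from -0.16 to 0.10, and the *Trp53*-/- value from -0.061 to 0.18 for *E2f7* and -0.049 to 0.41 for *E2f8*.

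Median centring turned the wild-type values of *E2f1* (0.36), *E2f2* (0.31), *E2f3* (0.46), *E2f4* (0.34), *E2f5* (0.21), *E2f7* (0.21), *E2f8* (0.017) and *Rbl1* (0.41), the *Trp53*-/- value of *E2f5* (0.42), the difference of *Rb1* (-0.11) and the untreated difference of *E2f1* (-0.11), and moved the share of lower among calls over all genes from 45.5% to 1.35% in wild-type and from 45.3% to 1.25% in *Trp53*-/- cells. That share went from 26.8% to 4.88% for the difference with the offset of 16, where 41 genes were called in place of 351, and from 50.1% to 64% in untreated cells with the scanner software's values, where no difference of responses was called. The untreated difference of *E2f1*, near 0, also turned with the offset of 16 (-0.0026) and scaling between arrays (-0.023), and that of *E2f3* with the mean over probes (0.017).

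Replicate numbers share only a number: deviations of same-numbered arrays correlated at -0.18 for ratios and 0.081 for control levels. With the number as a replicate block, members called lower in untreated *Trp53*-/- cells went from 0 to 1 and the G1/S targets called for the difference from 11 to 18. Over all genes, those called lower went from 788 to 1473 in untreated cells and from 94 to 163 for the difference. With the numbers crossed, a pairing chosen after seeing the data, 5 members were called lower and 2 higher in wild-type, 1 lower and 4 higher in *Trp53*-/- cells, and 3 lower for the difference. Over all 19682 genes the crossed fit called 2877 lower and 3638 higher in wild-type, and 2794 and 3545 in *Trp53*-/- cells. For the difference it called 404 lower in place of 94. The precision is limited by 2 arrays per genotype, and all member probes were well above background.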
